A study of Caenorhabditis elegans with 2 samples.

Results

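Of the 6780 SCC-1 peaks in the authors' list, 445, or 6.56%, had their midpoint within 500 kb of a chromosome end. They were chosen by position alone, and all 12 ends of the 6 chromosomes I, II, III, IV, V and X were represented. An end was taken as the start of the first peak or the end of the last peak of a chromosome, so that a window of 500 kb always began at a called peak. A tip below is such an end. Chromosome lengths were not used, so how far a right tip lies from the end of the sequence is not known here. The 12 windows covered 6 Mb. They were set against the rest of the arms, an arm being the outer 25% of the span on each side, with the end window left out. These stretches covered 44.0 Mb and held 2633 peaks.

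SCC-1 is the kleisin of the cohesin that acts in mitosis. It closes a ring with the SMC subunits, and the ring holds sister chromatids together and also shapes chromatin loops in interphase. The worm has other kleisins that act in meiosis or in other tissues. Chromosomes of Caenorhabditis elegans have no single centromere, and each end carries a telomere next to an arm that is rich in repeats and recombines often in meiosis, except close to the tip. The left end of X also carries the region through which the X chromosomes pair in meiosis.

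The peaks came from chromatin immunoprecipitation followed by sequencing (ChIP-seq) of whole adult hermaphrodites of genotype fem-2(b245)III, grown at 20 °C. FEM-2, a protein phosphatase, acts in sex determination, and hermaphrodites need it to make sperm. There was 1 ChIP library, made with a rabbit polyclonal antibody raised against a stretch of 100 residues of SCC-1, and 1 library of input DNA from worms of the same genotype, whose signal was not analysed here. No wild-type sample was among those used here, and there was no replicate, so no difference could be tested between samples. The labels call the worms young adults with a germline, while the growth protocol describes gravid adults. Germline and somatic cells were not separated, so a peak in few cells and weak binding in many cannot be told apart.

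Each peak had a start, an end and a score from the authors' peak caller, whose scale is not named. In the whole list the scores ran from 50.08 to 3228.3 with a median of 493.4, and 1182 peaks shared a score of exactly 3100, so that the order at the top was not resolved. The depth behind the peaks is unknown. Intervals below are exact 95% intervals (Poisson for a density, Clopper-Pearson for a share or a ratio of counts, order statistics for a median). They cover counting error only, treat neighbouring peaks as independent and do not stand for the spread between samples.

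SCC-1 peaks were denser in the outermost 500 kb than in the rest of the arms. The ends held 74.2 peaks per Mb, with an interval from 67.4 to 81.4, and the rest of the arms held 59.8, with an interval from 57.5 to 62.1. The ratio was 1.24, with an interval from 1.12 to 1.37. The density at the ends was 1.00 times that of the chromosome centres, 74.0 peaks per Mb, with an interval from 0.907 to 1.11. The chromosomes differed behind this value. On X the end windows held 9.84% of the peaks in 5.65% of the span, and on I 7.54% in 6.64%. On II, III, IV and V the share of peaks was below the share of the span. Peaks covered 11.8% of the end windows, 9.17% of the rest of the arms and 14.2% of the centres.

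The pooled ratio depended in part on the mix of chromosomes, because each chromosome gave the same length to the end windows while the long, sparse chromosomes gave more to the rest. If each end had had the density of the rest of its own arm, 374.7 peaks would have been counted in place of 445, a ratio of 1.19. The ratio was 1.20 on the autosomes alone, with an interval from 1.08 to 1.34. With windows of 1000 kb it fell to 1.085 and its interval, from 0.9996 to 1.18, reached 1.

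The same order was seen at most ends but was larger than the counting error at few. Of the 12 ends, 10 were denser than the rest of their own arm and 2 were less dense. The interval of the ratio lay above 1 at 3 ends and below 1 at 0. On I the right end had 100 peaks per Mb against 71.4 in the rest of its arm, a ratio of 1.40 with an interval from 1.01 to 1.91. The left end of II had 72 against 43.2, a ratio of 1.67 with an interval from 1.12 to 2.42. The left end of X had 68 against 38.2, a ratio of 1.78 with an interval from 1.19 to 2.60.

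The 2 ends that were less dense than their own arms were the right end of II and the left end of III. On II the right end had 70 peaks per Mb against 87.0, a ratio of 0.804 with an interval from 0.549 to 1.14. The left end of III had 60 against 78.1, a ratio of 0.768 with an interval from 0.506 to 1.13. At the other 7 ends the ratio ran from 1.04 at the left end of IV to 1.31 at the right end of V, and each interval included 1.

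**Figure D1:**
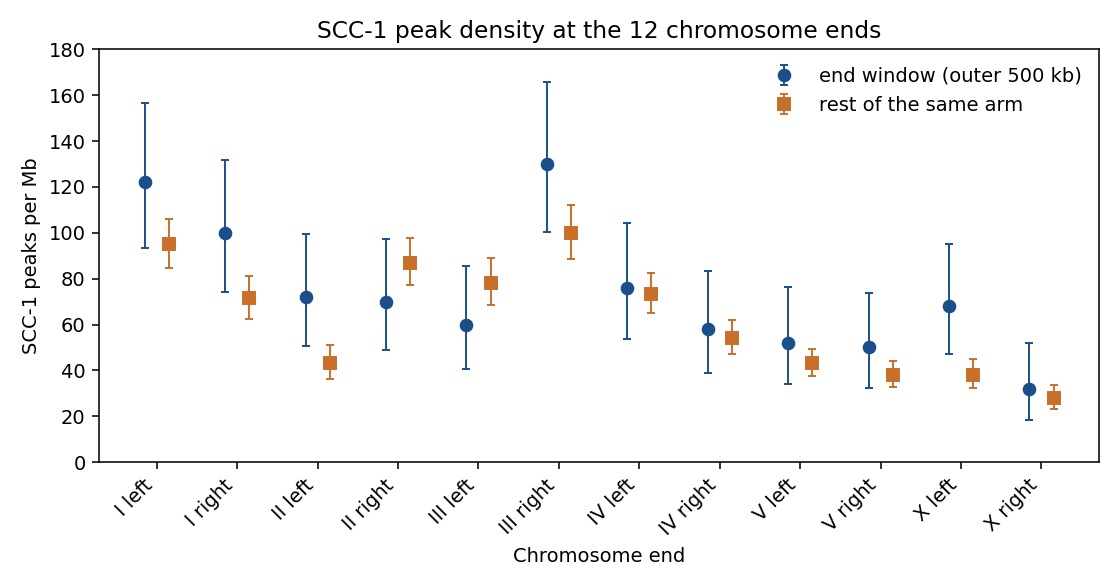
SCC-1 peaks per Mb in the outer 500 kb of each of the 12 chromosome ends (circles) and in the rest of the same arm (squares), with exact Poisson 95% intervals. The circle lies above the square at 10 ends, and below it at the right end of II and the left end of III.

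The ends differed among themselves. On III the right end was the densest of all, with 65 peaks or 130 per Mb and an interval from 100.3 to 165.7. It was followed by the left end of I with 61 peaks and the right end of I with 50. A middle group came next, with 38 peaks at the left end of IV, 36 at the left end of II, 35 at the right end of II and 34 at the left end of X. The left end of III had 30 peaks, the right end of IV 29, the left end of V 26 and the right end of V 25. On X the right end was the sparsest, with 16 peaks or 32 per Mb and an interval from 18.3 to 52.0.

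The densest end held 4.06 times as many peaks as the sparsest, with an interval from 2.32 to 7.52. No 2 neighbours in this order differed beyond the counting error. The widest step between neighbours, from the right end of V to the right end of X, was a ratio of 1.56 with an interval from 0.802 to 3.13. Dense ends tended to belong to dense arms. Over the 12 ends, Spearman's rho between the density of an end and that of the rest of its arm was 0.77 and Pearson's r was 0.80, given as a description because ends of a chromosome share that chromosome and all ends share 1 library.

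Left and right ends differed in peak number beyond the counting error on 2 of the 6 chromosomes. Chromosome III had 30 peaks at its left end and 65 at its right, so that the left end held 31.6% of them, with an interval from 22.4% to 41.9%. X had 34 at its left end and 16 at its right, a left share of 68.0% with an interval from 53.3% to 80.5%. The share was 54.95% on I, 50.7% on II, 56.7% on IV and 50.98% on V, and each of these intervals included 50%. On II the ends did not show the contrast between its arms, since the left side held 33.2% of the peaks in the rest of the arms and 50.7% of those at the ends. On III and X the rest of the arms leaned the same way as the ends, with left shares of 43.9% and 57.7%. The arm share of X lay inside the interval of its ends, and that of III lay above the interval of its ends.

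The excess at the ends did not build up towards the tips. Over the 12 ends, the first 100 kb held 83 peaks, or 69.2 per Mb, the second 94, the third 84, the fourth 114 and the fifth 70. The density of the first 100 kb was 0.917 of that from 100 to 500 kb, with an interval from 0.714 to 1.17. The fullest step, from 300 to 400 kb, had 95 peaks per Mb, with an interval from 78.4 to 114.1. That step held 21 of the 61 peaks at the left end of I, 19 of 50 at the right end of I and 16 of 29 at the right end of IV, but 2 of 35 at the right end of II and 1 of 16 at the right end of X.

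Beyond 500 kb the density was lower, and the last step inside the windows, from 400 to 500 kb, was already at 58.3 peaks per Mb, against 56.7 from 500 to 1000 kb. The stretch from 500 to 1000 kb held 340 peaks, against 445 in the outer 500 kb, a ratio of 1.31 with an interval from 1.13 to 1.51. The outer stretch had more peaks than the next at 9 of 12 ends. The contrast was widest at the left end of II, with 36 peaks against 13, a ratio of 2.77 with an interval from 1.43 to 5.69. At the right end of I there were 50 against 23, a ratio of 2.17 with an interval from 1.30 to 3.73. At the left end of I there were 61 against 40, a ratio of 1.52 with an interval from 1.01 to 2.33. Farther inward the density was 68 per Mb from 1000 to 1500 kb, with an interval from 61.6 to 74.9 that overlapped that of the ends, and 55.7, 62 and 60.8 in the 3 steps that followed.

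**Figure D2:**
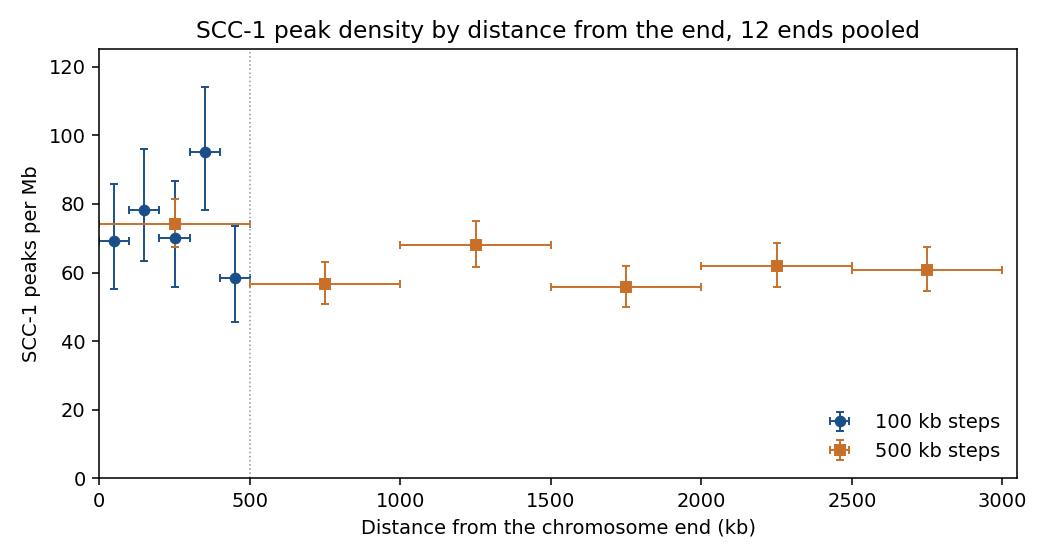
SCC-1 peaks per Mb by distance from the chromosome end, summed over the 12 ends, in steps of 100 kb up to 500 kb (circles) and of 500 kb up to 3000 kb (squares), with exact Poisson 95% intervals as vertical bars and the step as horizontal bars. The outer 500 kb step lies at 74.2 per Mb and the later steps between 55.7 and 68, while the 100 kb steps inside it show no rise towards the tip.

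Inside a window the peaks were often spread unevenly, with long empty stretches between them. The spread was not compared with random placement. At the right end of IV 16 of 29 peaks, or 55.2%, lay in a single 100 kb step, and at the left end of V 13 of 26 lay between 100 and 200 kb. The left end of X had 14 of its 34 peaks in that same step. The right end of III was more even, and each step there held 11 to 15 peaks. The longest stretch between neighbouring peaks of a window ran from 40.5 kb at the right end of III to 117.1 kb at the right end of V, from 20581526 to 20698596. At the right end of I lay an empty stretch of 99.4 kb, from 14898670 to 14998019, beside 12 peaks in its last 100 kb. The left end of V had no peak from 400 to 500 kb: its empty stretch ran from 360043 to 686721, or 326.7 kb.

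Neighbouring midpoints lay a median of 5.38 kb apart within the windows and 6.46 kb apart in the rest of the arms. Within the windows 207 of 433 neighbouring pairs, or 47.8%, lay within 5 kb of each other, with an interval from 43.0% to 52.6%. In the rest of the arms the share was 42.5%, with an interval from 40.6% to 44.5%. The intervals overlapped, but overlap does not settle whether the shares differ, and the difference itself was not tested. The median spacing was shorter at the end than in the rest of its own arm at 10 of the 12 ends. The exceptions were the 2 ends that were less dense than their own arms, with a median of 12.3 kb at the right end of II and 13.01 kb at the left end of III. Spacing shortens as density rises, so this count is not separate from the comparison of densities.

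**Figure D3:**
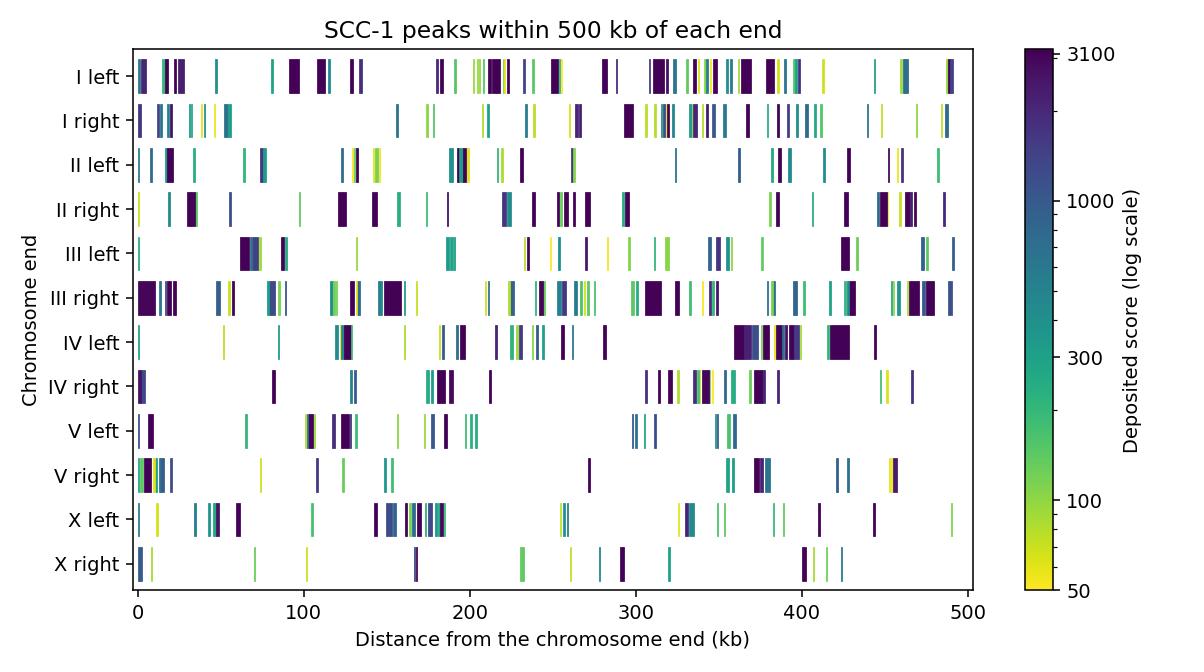
Position and width of the 445 SCC-1 peaks, by distance from the chromosome end in kb (1 row per end), coloured by deposited score on a log scale. Peaks are often unevenly spread, with empty stretches of up to 117.1 kb between them, and at the left end of V the last peak lies at 359.2 kb.

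The outermost peak of each chromosome lay at the tip by construction. On 5 of the 6 left ends the first peak began at base 1 or 2 of the WS220 sequence, so the start of the sequence bounds these peaks on that side and their widths are not comparable with those of other peaks. On II it began at base 24233, which is where that window was taken to start. These left-end peaks were between 468 and 1251 bp wide, and their scores ran from 247.8 at the left end of III to 1185.0 at the left end of V. On III the first peak, from 2 to 469, was the narrowest of all 445 peaks, and the next peak lay 61.0 kb away. The outermost peak at the left end of IV, from 1 to 486, was likewise alone, with 50.6 kb to the next.

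At the right ends the outermost peaks had scores from 70.99 to 3004.1. The last peak of III, from 13761842 to 13772472, was 10631 bp wide with a score of 3004.1 and was the widest of the 12 outermost peaks. The last peak of IV, from 17460308 to 17461926, had a score of 2622.1 and a width of 1619 bp. On I the last peak, from 15052215 to 15054169, had a score of 1686.0, and on X, from 17709977 to 17712220, one of 977.4. The last peak of V, from 20851800 to 20852551, had a score of 271.6. The last peak of II, from 15262844 to 15263560, had a score of 70.99 and was the weakest of the 12. Of the 12 outermost peaks, 0 reached 3100, where 18.3% of all peaks in the list did. No interval was computed for this share of only 12 peaks, so no difference from the list is drawn from it. Of the 7 that were narrower than 1000 bp, 4 began at base 1 or 2, and in the whole list 36.5% of peaks were that narrow.

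Strong peaks were present at every end. Of the 445 peaks, 88 had a score of 3100 or more, or 19.8% with an interval from 16.2% to 23.8%, against the 18.3% of the whole list. In the rest of the arms the share was 17.0%, with an interval from 15.6% to 18.5%. This share and that of the whole list lay inside the interval of the ends. Each end held at least 3 such peaks. At 10 ends the highest score was exactly 3100, shared by 3 to 15 peaks. Scores above 3100 were printed for 2 end peaks: the peak at 210839 to 212882 on I, which had 3175.8, and the peak at 255025 to 256529 on IV, which had 3174.8.

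At the 10 ends where peaks shared the top score, the first of them by position is described here, and its place in the window depends on this rule. Among these first peaks, the one at the left end of V, from 6202 to 9284, was the closest to a tip, 7.74 kb from it. On II the peak from 41857 to 45617 lay 19.5 kb from the left end, and on X the peak from 58836 to 61508 lay 60.2 kb from it. The one on III from 61479 to 66976 lay 64.2 kb from the left end and was 5498 bp wide. On the right sides, these peaks were at 14668141 to 14669230 on I, 14799078 to 14801720 on II, 13292676 to 13294510 on III, 17086291 to 17091030 on IV, 20478657 to 20481393 on V and 17309737 to 17312107 on X, all at least 372.5 kb from the tip. Taking the first by position favours the inner side of a right end, so these distances are not comparable between sides. Peaks with a score of 3100 also lay near right tips, which are the ends of the last peaks and not known ends of the sequence. The peak from 20844868 to 20848695 on V lay 5.77 kb from the tip, and the peak from 13752576 to 13754835 on III 18.8 kb.

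Broad peaks made up the same share at the ends as in the rest of the arms. Among the 445 peaks 13, or 2.92%, measured at least 5 kb, with an interval from 1.56% to 4.94%, against 4.47% of all peaks. In the rest of the arms the share was 2.92%, and in the centres 5.75%, with an interval from 5.03% to 6.55% that lay above that of the ends. The 13 broad peaks lay at 6 of the 12 ends, with 4 each at the left end of I and the right end of III, 2 at the left end of IV, and 1 each at the right end of I, the left end of III and the right end of IV. The ends of II, V and X had none. At the right end of X, 0 of 16 peaks were that broad, with an interval up to 20.6%.

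The widest peak of all ends, 11582 bp, lay on IV from 416645 to 428226. It was followed by the tip of III named above and by 2 more peaks at the right end of III, from 13614237 to 13624399 and from 13457168 to 13466841, which were 10163 and 9674 bp wide. The fifth, 6646 bp wide, lay on I from 310128 to 316773. Of these 5, all but the tip of III had a score of 3100. With 23.9% of its length covered by peaks, the right end of III was the most covered end, followed by the left end of I with 22.01%. The right end of X was the least covered, with 3.52%.

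Median scores at the ends and in the rest of the arms had overlapping intervals, and their difference was not tested. The median score was 524.4 at the ends, with an interval from 384.2 to 659.6, and 424.8 in the rest, where the interval ran from 387.8 to 479.3. The medians differed by 99.6 and their intervals overlapped. Compared with the rest of its own arm, the median was higher at 8 ends and lower at 4. The right end of II stood out in value: its median was 2192.8, with an interval from 432.0 to 3100, against 593.9 in the rest of its arm, and 15 of its 35 peaks, or 42.9% with an interval from 26.3% to 60.7%, had a score of 3100 or more, against 19.4% in that rest. This was also 1 of the 2 ends with a lower peak density than the rest of their arm. At the right end of IV the median was 1295.6, with an interval from 239.4 to 2622.1, against 538.0. The lowest median, 219.8, was at the right end of X, with an interval from 88.2 to 1382.4.

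The density ratio between the ends and the rest of the arms was above 1 in each class of score. The whole list was split by score into 4 classes of 25% of the peaks each. The ratio was 1.15 in the lowest class, with an interval from 0.934 to 1.40, then 1.19 and 1.21, and 1.44 in the highest class, which held 119 end peaks, with an interval from 1.17 to 1.76. The interval excluded 1 in the highest class and included it in the other 3, and the intervals of all 4 classes overlapped.

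Median peak widths at the ends and in the rest of the arms had overlapping intervals. The median width was 1151 bp, with an interval from 1078 to 1251, against 1107 bp, with an interval from 1079 to 1135. It was larger than in the rest of the same arm at 8 ends and smaller at 4. The largest excess was at the left end of X, with a median of 1227 bp against 847.5 bp in the rest of its arm. The largest shortfall was at the right end of IV, with 1089 against 1323 bp. At the right end of X the median was 844.5 against 778.0 bp. Wider peaks had higher scores, with a Spearman's rho across the 445 end peaks of 0.74, and of 0.76 across the 2633 peaks of the rest. Among the end peaks, neither score nor width followed the distance from the tip, with rho of -0.0068 and -0.026. These are descriptions across peaks of 1 library, in which a caller's score may depend on the width of the region.

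**Figure D4:**
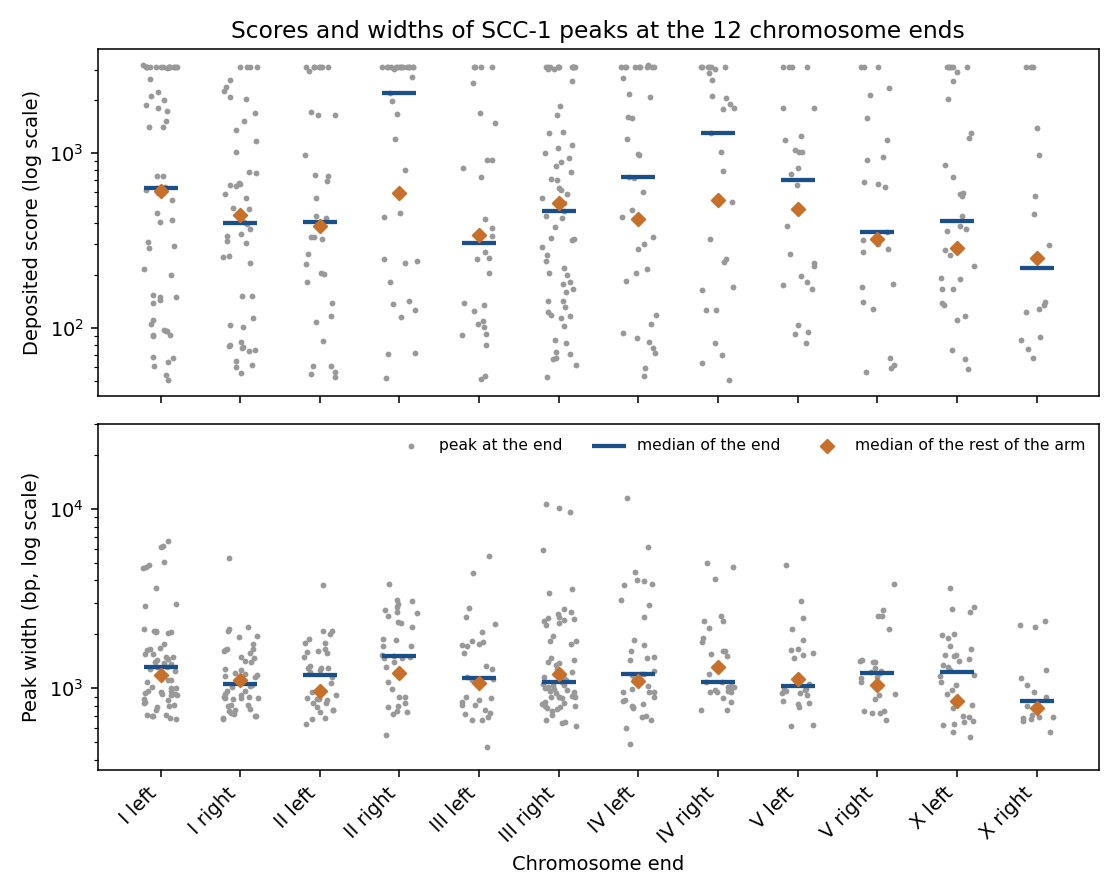
Deposited score (top) and width in bp (bottom) of each SCC-1 peak at the 12 chromosome ends, both on log axes, with the median of the end (bar) and the median of the rest of the same arm (diamond). The right end of II has the highest median score, 2192.8, and the pile-up at 3100 is visible at every end.

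On both sides of the 500 kb limit the nearest peaks ranged widely in score. The last peaks inside it lay between 359.2 and 491.1 kb from the tip, with scores from 110.5 to 3100 and a median of 1014. The first peaks outside lay between 500.7 and 687.3 kb from the tip, with scores from 56.04 to 3100 and a median of 662.5. Their median widths were 1360 and 1060 bp.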

How the data were processed

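1 ChIP library and 1 input library were described by the labels, and a peak list of the ChIP library was analysed. BWA and the build ce10 are named, per the submitters' processing notes. Per the file headers, peaks were called with MACS on WormBase WS220. Not given in the sources used here were the versions of BWA and MACS, the calling threshold and any use of the input. The deposited score is the authors' value per peak, with no named scale, and was used only within this list. Positions are 1-based, as deposited. A second peak list (1 score column) was left out, since its peak names give another target (COH1) and another antibody (SDQ0812) than the labels of the samples. Genome sequence and gene annotation of WS220 were not used here, so peaks were not assigned to genes.

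Peaks were placed by their midpoint, spans ran from the first to the last peak, an arm was the outer 25% of a span on each side, and density was peaks per Mb. Covered length was counted base by base inside each region. No test between samples was possible and no resampling was done. Because neighbouring peaks may not be independent, the intervals are likely too narrow. The members, regions and lists were chosen with earlier results of these data known. Named peaks were, at each end, the outermost and the highest-scoring peak (first by position among ties), the 5 widest end peaks, the longest empty stretch and the peaks next to the 500 kb limit. Alternatives covered the window, the score threshold, merging of neighbours, placement, the reference and each chromosome left out. The interval of the density ratio was tested on simulated counts that were drawn as independent, and the other intervals were not tested in this way. Values were computed in Python 3.11.15 with numpy 2.4.6 and scipy 1.17.1, and plots drawn with matplotlib 3.10.9.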

Additional observations from a re-analysis of the deposited data

How the results depend on the processing

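The density ratio between the ends and the rest of the arms stayed above 1 under all 17 alternatives run, from 1.085 with windows of 1000 kb to 1.44 in the top 25% of peaks by score. With windows of 250 kb it was 1.21, and without single chromosomes it ran from 1.20 to 1.28. The ratio of covered shares, 1.28, was 1.096 with windows of 1000 kb and 1.43 in the top 25%. The difference of median scores, 99.6, was -0.175 with windows of 250 kb, 0 in the top 25% and 244.6 as the mean of the 12 ends beside their own arms. The difference of median widths, 44 bp, was -41.5 bp in the top 50% and -73 bp in the top 25%. By construction, the share of scores of 3100 or more rose to 39.3% in the top 50% and 73.9% in the top 25%. The share 5 kb or wider was 5.80% and 10.9% there, and 7.30% when neighbours up to 500 bp apart were merged. Both shares are of end peaks only. Those of the rest of the arms and of the whole list were not computed under these settings, so the ends cannot be compared with them there. The number of ends denser than the rest of their own arm, 10, was 7 with windows of 1000 kb and 9 or 10 in the other alternatives. The number of chromosomes with more peaks at the left end, 5, was 3 with windows of 1000 kb and 3 in the top 25%; on II and V the ends differed by 1 peak in the full list. The cause was not tested. The alternatives for left against right ends and for the first 100 kb, the left ends set at base 1, the weighing by own arms and the comparison with the next 500 kb were chosen after seeing the data. No paired analysis was possible because only the ChIP library had a peak list to analyse. Depth is unknown, so a stretch with no peak may be one with too few reads.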
